A study of Mus musculus with 12 samples.

Results

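The 35 genes described here are marker genes of the endothelium, the cell layer that lines blood and lymph vessels. They were taken from a list chosen with earlier results of these data known. They make up 35 of the 18193 mouse genes with a probe set assigned to 1 gene symbol, and 63 of the 34945 such probe sets. Their RNA was read on 12 Affymetrix mouse arrays, 2 for each of 6 groups: pieces of kidney cortex, pieces of kidney medulla, renal progenitor cells derived from cortex or from medulla and grown on fibroblast feeder cells, and organoids of cortex or medulla origin formed in a 3D Matrigel differentiation system. Replicates are labelled biological, from 2 samples according to the series text. The sources used here do not state whether replicates with equal numbers share an animal, whether feeder cells were removed before extraction, or the strain, sex and age.

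Endothelial cells respond to vascular endothelial growth factors through the receptors Kdr, Flt1 and Flt4 and to angiopoietins through Tek, hold together through the cadherin Cdh5 and the adhesion protein Pecam1, and owe their identity to transcription factors of the ETS family (Erg, Fli1) and of the SOXF group (Sox7, Sox17, Sox18). In the kidney they form fenestrated glomerular and peritubular capillaries and the vasa recta of the medulla. The renal tubule, the source named for the progenitor cells, is an epithelium that lies beside these capillaries.

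In both tissue regions the list was bright. Of the 35 genes, 31 exceeded the median signal of the array on both cortex tissue arrays and 33 on both medulla tissue arrays, against 7 and 11 in progenitor cells of cortex and medulla and 7 in each organoid group. For 20 genes the tissue groups were the only ones above the array median, and Lyve1 and Erg were above it in no group on the probe set used. The array median is only a yardstick of brightness, since detection calls were not used here. In bulk RNA, fewer cells of a type and less RNA per cell cannot be told apart.

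Upstream sequences of 18 of the 35 genes were found in the RefSeq promoter table (GRCm38.p6), and 5 are shown: the 4 genes with the lowest differences between progenitor cells and tissue among these 18 (Emcn, Tek, Calcrl and Ehd3), because such a fall was the most common pattern of the list, and Flt4 as a gene that was instead higher in progenitor cells. They were chosen after their values were seen. Each run holds the 250 bases before the annotated start on the gene's own strand. They are Emcn at chr3:137340828-137341077 on the plus strand, Tek at chr4:94739039-94739288 on the plus strand, Calcrl at chr2:84425267-84425516 on the minus strand, Ehd3 at chr17:73804591-73804840 on the plus strand and Flt4 at chr11:49609429-49609678 on the plus strand. Capitals mark exact matches, on either strand, to an ETS family form (CAGGAAG), a second ETS family form (CCGGAAG), a SOX family form (AACAAT), a forkhead family form (TGTTTAC) or a GATA family form (AGATAA).
Emcn: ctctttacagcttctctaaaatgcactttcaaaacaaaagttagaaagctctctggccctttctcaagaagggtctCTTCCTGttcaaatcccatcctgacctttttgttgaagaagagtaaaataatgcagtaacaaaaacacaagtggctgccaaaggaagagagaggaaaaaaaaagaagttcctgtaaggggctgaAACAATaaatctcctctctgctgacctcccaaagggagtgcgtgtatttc
Tek: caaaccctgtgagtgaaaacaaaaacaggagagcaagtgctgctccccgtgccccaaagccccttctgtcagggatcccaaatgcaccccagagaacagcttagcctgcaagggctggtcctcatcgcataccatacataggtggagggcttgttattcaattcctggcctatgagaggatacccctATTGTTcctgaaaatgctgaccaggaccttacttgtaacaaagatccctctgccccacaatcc
Calcrl: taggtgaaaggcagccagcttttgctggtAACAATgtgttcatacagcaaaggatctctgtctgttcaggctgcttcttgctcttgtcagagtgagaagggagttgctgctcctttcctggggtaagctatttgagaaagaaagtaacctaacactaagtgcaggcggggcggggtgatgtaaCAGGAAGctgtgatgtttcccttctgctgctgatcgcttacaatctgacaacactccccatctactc
Ehd3: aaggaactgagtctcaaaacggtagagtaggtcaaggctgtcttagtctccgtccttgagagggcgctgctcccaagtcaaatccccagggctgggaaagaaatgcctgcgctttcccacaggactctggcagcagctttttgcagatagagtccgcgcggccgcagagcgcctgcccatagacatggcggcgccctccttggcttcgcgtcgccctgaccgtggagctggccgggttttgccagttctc
Flt4: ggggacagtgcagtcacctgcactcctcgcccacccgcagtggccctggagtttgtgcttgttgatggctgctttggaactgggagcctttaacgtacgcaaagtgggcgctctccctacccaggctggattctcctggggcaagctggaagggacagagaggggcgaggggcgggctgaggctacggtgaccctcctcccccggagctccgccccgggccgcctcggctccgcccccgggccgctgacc

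Calcrl holds CAGGAAG with its first base at position -67 from the start and Emcn holds its reverse complement at -174. AACAAT lies at -221 in Calcrl and at -50 in Emcn, and its reverse complement lies at -63 in Tek. The Ehd3 and Flt4 stretches have no match. Of the 18 genes, 10 have a match to any of the 5 motifs in the 250 bases before a start and 8 have none: Flt4, and Ehd3, Eng, Tie1, Clec14a, Kdr, Ednrb and Flt1, which were lower in progenitor cells. Genes that fell were thus found both with and without a match. Over the windows of 300 bases in the table (250 before and 50 after a start), CAGGAAG or its reverse complement occurred in 9 of 23 windows of the listed genes (39.1%), from 8 genes: Calcrl, Cd34, Egfl7, Ehd3, Emcn, Erg, Rasip1 and Robo4. The share over all 32851 windows was 13.3%. CCGGAAG was in 0 of the 23 windows (8.86% of all windows), AACAAT in 4 (17.4%, against 10.7%), AGATAA in 4 (17.4%, against 11.2%) and TGTTTAC in 1 (4.35%, against 3.65%). These are letter matches in short windows, described with no test, several windows belong to 1 gene, and the Ehd3 match reaches into the 50 bases after the start.

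The first comparison set progenitor cells against tissue, with 4 arrays on each side and both regions averaged. Of the 35 genes, 30 were lower in progenitor cells, 3 were higher (Sox17, Flt4 and Ecscr) and 2 did not pass the test (Tal1 and Lyve1). Over all 18193 genes, 28.5% were called lower and 26.7% higher. The median log2 difference of the list was -3.06, beside -0.05 for all genes, and the 30 falls ran from -6.88 to -0.96. In each of these 30 genes every tissue array lay above every progenitor array, which was so in 5163 of all 18193 genes. A call here is an adjusted p under 0.05 (limma, Benjamini-Hochberg over all genes), and log2 differences were computed after 15.16 signal units had been added to each signal, so they understate the change of dim genes. Values of single arrays below are the deposited log2 signals, in the order cortex replicate 1, cortex replicate 2, medulla replicate 1 and medulla replicate 2. They compare arrays for 1 probe set and not 1 gene with another.

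**Figure D1:**
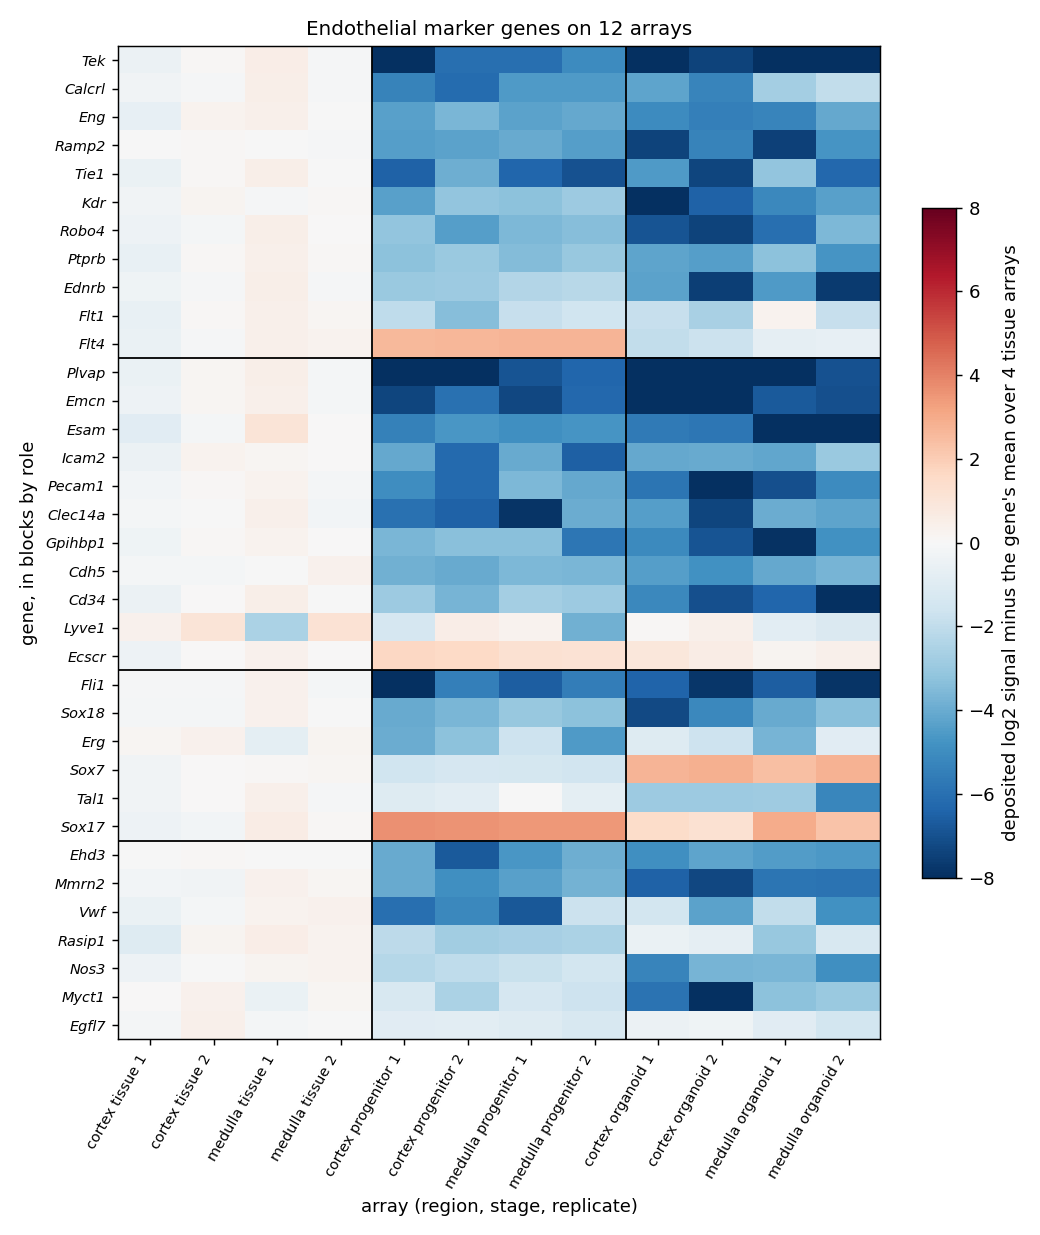
Each cell is the deposited log2 signal of 1 gene (rows, in blocks by role) on 1 array (columns), minus that gene's mean over the 4 tissue arrays; blue is lower than tissue, red is higher, and the colour scale ends at 8 log2 units either way. The mean over the 35 genes was 8.35 to 8.88 on tissue arrays, 5.06 to 5.52 on progenitor arrays and 3.93 to 4.66 on organoid arrays, and the red rows in the cultures are Flt4, Ecscr, Sox17 and Sox7.

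Among the 11 receptors, 10 were lower in progenitor cells and 1, Flt4, was higher. Tek, the receptor for angiopoietins, read 9.67, 10.23, 10.71 and 10.04 in tissue, 1.46, 4.13, 4.11 and 5.14 in the progenitor cells and 1.98, 2.78, 0.65 and -1.38 in the organoids. No progenitor or organoid array of Tek came within 4 log2 units of the lowest tissue array. Its difference between progenitor cells and tissue was -5.21 ± 0.3 (SE), or 37.1-fold lower (adjusted p = 9.55e-09). Calcrl, the receptor for adrenomedullin, read 9.42, 9.62, 10.2 and 9.64 in tissue, against 4.38, 3.58, 5.19 and 5.19 in progenitor cells, a difference of -4.42 ± 0.26 (adjusted p = 1.21e-08). In organoids it read 5.47, 4.41, 6.99 and 7.73, so both medulla organoid arrays lay above all progenitor arrays and still below all tissue arrays. Ramp2, the partner that makes Calcrl an adrenomedullin receptor, read 9.5, 9.63, 9.51 and 9.43 in tissue, 5.12, 5.25, 5.5 and 5.11 in the progenitor cells and 2.11, 4.2, 2.06 and 4.8 in the organoids. It was 14.1-fold lower in progenitor cells (-3.81 ± 0.3, adjusted p = 1.84e-07), with no organoid array above the lowest progenitor array. Eng, a co-receptor for transforming growth factor beta family ligands, read 10.24, 11.16, 11.25 and 10.83 in tissue, 6.51, 7.19, 6.6 and 6.77 in the progenitor cells and 5.82, 5.39, 5.56 and 6.76 in the organoids, and was lower in progenitor cells by 3.93 (15.2-fold, adjusted p = 6.53e-08).

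The other receptors that fell were Tie1 (-3.6), an orphan relative of Tek, Kdr (-3.08), the main signalling receptor for Vegfa, Robo4 (-3.06), a roundabout receptor of vessels, Ptprb (-3.04), a phosphatase that acts on Tek, Ednrb (-2.21), an endothelin receptor, and Flt1 (-2.05), a high-affinity receptor for Vegfa. Their adjusted p-values (limma) lay between 5.46e-07 (Ptprb) and 0.000657 (Flt1). Several of these genes have further probe sets, which were tested in a fit over all probe sets with a single symbol. Ednrb had the same direction on a second probe set with a larger size, -5.48 ± 0.32, on which tissue read 9.11, 9.63, 10.98 and 9.8, against 2.35, 1.68, 1.95 and 3.88 for progenitor cells. Flt1 was the least uniform of the falling receptors: 3 of its 4 probe sets were lower in progenitor cells (-2.05, -1.98 and -3.87) and the fourth did not pass the test (-0.34 ± 0.24, adjusted p = 0.274). The dimmest probe sets of Calcrl and of Ptprb were not called (0.01 and -0.51).

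Surface and adhesion proteins held the 2 largest falls of the list, Plvap and Emcn: 9 of 11 were lower in progenitor cells, Ecscr was higher and Lyve1 was not called. Plvap, which forms the diaphragms of fenestrated endothelium, read 11.34, 12.06, 12.36 and 11.74 in tissue, 2.44, 1.4, 4.95 and 5.55 in the progenitor cells and 2.33, 3.44, 3.25 and 4.91 in the organoids. It was 118-fold lower in progenitor cells (-6.88 ± 0.28, adjusted p = 4.19e-10), the lowest difference among the 35 genes. Emcn, a sialomucin of capillary and venous endothelium, read 10.57, 11.15, 11.37 and 10.83 in tissue, 3.61, 5, 3.69 and 4.67 in the progenitor cells and 1.12, 0.49, 4.23 and 3.93 in the organoids. Its difference in progenitor cells was -5.87 ± 0.27, or 58.4-fold (adjusted p = 1.41e-09), with at least 5 log2 units between the closest tissue and progenitor arrays. Esam, an endothelial junction protein, read 10.02, 10.8, 11.98 and 10.95 in tissue, 5.52, 6.25, 6.03 and 6.2 in the progenitor cells and 5.27, 5.14, 2.2 and 1.55 in the organoids, a fall of 4.64 in progenitor cells (adjusted p = 1.33e-08). Within the organoids the medulla arrays of Esam lay about 3 log2 units below the cortex arrays. Icam2, an adhesion molecule for leukocytes, read 8.14, 8.92, 8.78 and 8.62 in tissue, 4.51, 2.42, 4.61 and 2.07 in the progenitor cells and 4.54, 4.61, 4.45 and 5.66 in the organoids. The progenitor arrays of Icam2 scattered by over 2 log2 units within each region, and the difference of -3.88 ± 0.34 (adjusted p = 5.5e-07) was larger than that scatter.

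The remaining surface proteins fell by smaller amounts: Pecam1 (-3.75) and Cdh5 (-3.27), both junction proteins, Clec14a (-3.55), a C-type lectin that binds Mmrn2, Gpihbp1 (-3.48), which holds lipoprotein lipase on capillaries, and Cd34 (-2.86), a sialomucin shared with blood progenitors. A dim second probe set of Cdh5 was not called (-0.24 ± 0.25). Lyve1, a hyaluronan receptor of lymphatic endothelium, read 4.55, 5.28, 1.71 and 5.35 in tissue, against 2.87, 4.78, 4.51 and 0.38 in progenitor cells. Those ranges overlap, and both of its probe sets missed the threshold (-0.46 ± 0.38, adjusted p = 0.339, and -0.88 ± 0.38, adjusted p = 0.0739), at signals below the array median in every group.

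Of the 6 transcription factors, 4 were lower in progenitor cells, Sox17 was higher and Tal1 was not called. Fli1, an ETS factor of endothelium and blood, read 9.02, 9, 9.41 and 8.95 in tissue, -0.59, 3.65, 2.53 and 3.54 in the progenitor cells and 2.69, 1.33, 2.47 and 1.28 in the organoids. It was 25.2-fold lower in progenitor cells (-4.66 ± 0.27, adjusted p = 1.16e-08), and its second probe set was also lower (-2.95). Sox18 read 7.87, 7.88, 8.4 and 8.02 in tissue, 3.98, 4.4, 4.99 and 4.79 in the progenitor cells and 0.8, 2.91, 4.03 and 4.72 in the organoids, a fall of 2.85 in progenitor cells (adjusted p = 5.57e-07). Erg, an ETS factor that maintains endothelial identity, read 6.1, 6.25, 5.17 and 6.17 in tissue, 1.95, 2.62, 4.27 and 1.41 in the progenitor cells and 4.92, 4.24, 2.23 and 4.99 in the organoids. On that probe set it was lower in progenitor cells by 1.78 (adjusted p = 0.000535). A second Erg probe set, brighter in tissue, read 7.7, 8.22, 8.73 and 8.05 in tissue against 1.79, 2.01, 2.01 and 2.83 in progenitor cells, a difference of -3.94 ± 0.26. Tal1, a basic helix-loop-helix factor of early blood and endothelium, read 6.06, 6.35, 6.72 and 6.24 in tissue, against 5.29, 5.5, 6.34 and 5.57 in progenitor cells, with 1 progenitor array inside the tissue range (-0.53 ± 0.27, adjusted p = 0.111).

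All 7 secreted, matrix or intracellular proteins were lower in progenitor cells. Ehd3, a membrane trafficking protein marking glomerular endothelium in the kidney, read 9.6, 9.74, 9.56 and 9.57 in tissue, 5.56, 2.9, 4.99 and 5.68 in the progenitor cells and 4.7, 5.42, 5.17 and 5.03 in the organoids (-4.13 ± 0.31 in progenitor cells, adjusted p = 1.35e-07). The 4 tissue arrays of Ehd3 agreed within 0.2 log2 units. Mmrn2, a matrix protein of vessels, read 9.69, 9.65, 10.22 and 10.05 in tissue, 5.87, 5.02, 5.57 and 6.09 in the progenitor cells and 3.44, 2.59, 4.05 and 3.98 in the organoids (-3.89 ± 0.24, adjusted p = 1.75e-08). All 4 Mmrn2 probe sets were lower in progenitor cells, by up to 6.24. Vwf, the platelet-binding clotting protein stored in endothelium, read 6.05, 6.43, 6.86 and 6.91 in tissue, 0.5, 1.41, -0.23 and 4.85 in the progenitor cells and 5.07, 2.25, 4.57 and 1.69 in the organoids. Its culture arrays scattered widely at low signal, and the difference was -2.37 ± 0.39 (adjusted p = 0.000171). Rasip1, an adaptor needed for vessel lumens, read 6.31, 7.54, 7.86 and 7.59 in tissue, 5.24, 4.52, 4.68 and 4.81 in the progenitor cells and 6.82, 6.61, 4.32 and 6.03 in the organoids (-2.03 ± 0.33 in progenitor cells, adjusted p = 0.000165). Nos3, the endothelial nitric oxide synthase (-1.68), Myct1 (-1.43) and Egfl7, a secreted factor of vessels (-0.96), fell least on their main probe sets. Further Myct1 probe sets gave -3.76, -2.69 and -1.3, so its place among these depended on the probe set. Egfl7 stayed above the array median in all 6 groups, and the dimmest of its 4 probe sets was not called (0.18 ± 0.32).

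**Figure D2:**
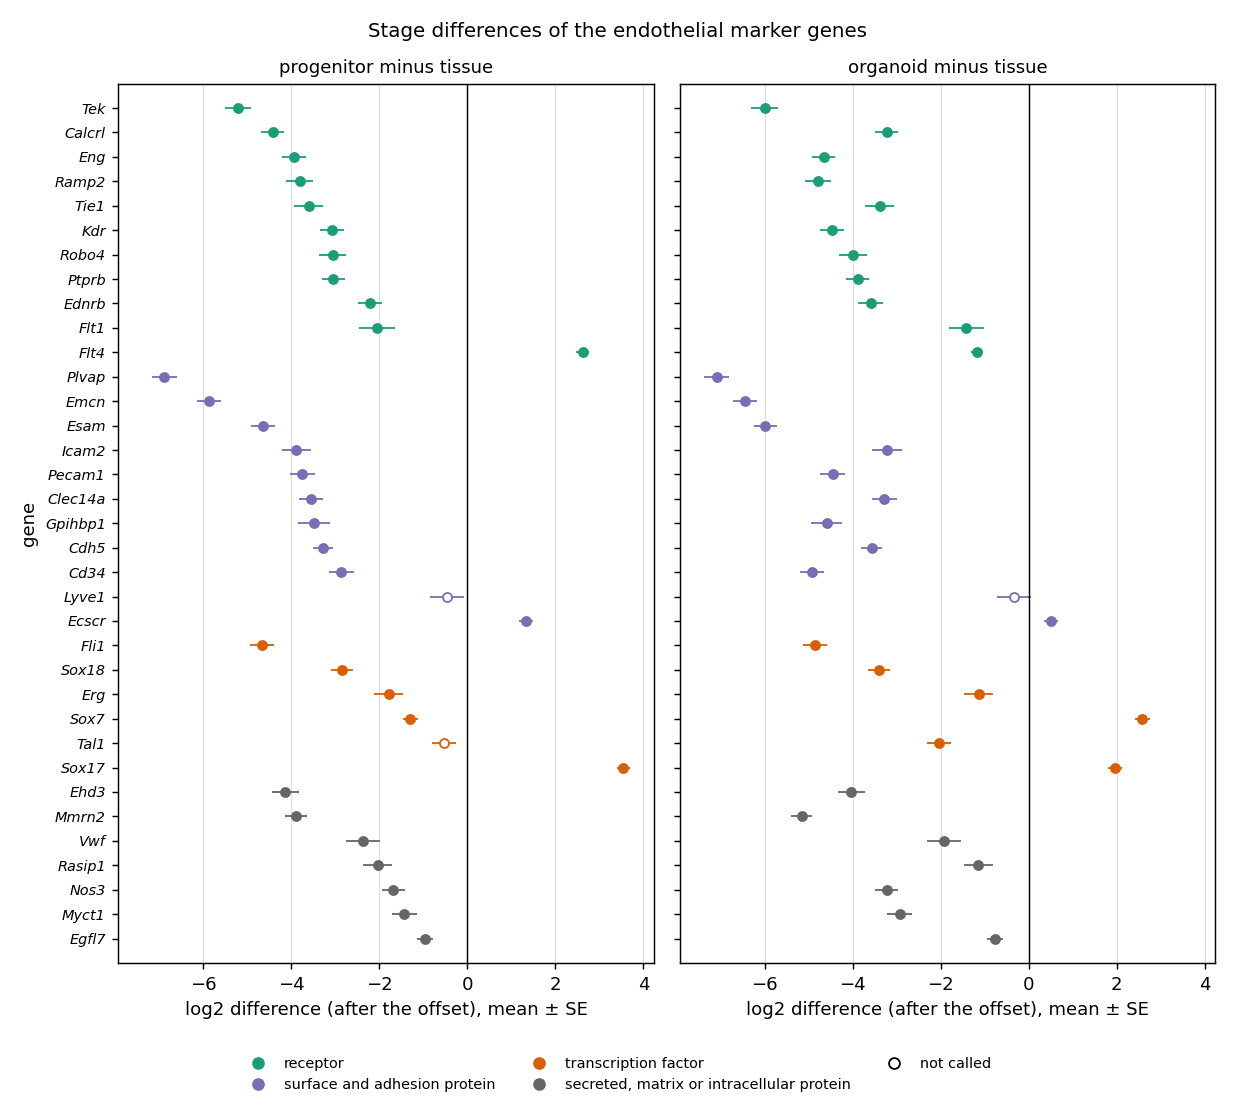
Points are log2 differences with SE (after the offset) for each gene, coloured by role, for progenitor cells minus tissue (left) and organoids minus tissue (right), 4 arrays on each side; open points did not pass the test. In the left panel 30 genes were called lower and 3 higher, and in the right panel 31 lower and 3 higher, on the main probe set of each gene.

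Of 28 further probe sets of the listed genes, 21 had the same call as the gene's main probe set in progenitor cells against tissue, 6 were not called, 0 had the opposite call, and 1 belonged to Lyve1, whose main probe set was not called. For organoids against tissue the corresponding counts were 21, 4, 2 and 1, with the opposite calls in Flt1 and Flt4. For organoids against progenitor cells they were 3, 11, 2 and 12, with the opposite calls in Flt4 and Ptprb. The same call was thus more common in the comparisons with tissue than in the one between the cultures.

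Sox17, an endothelial SOXF factor that also marks definitive endoderm, went against the list. It read 9.08, 9.29, 10.11 and 9.59 in tissue, 13.2, 13.13, 13.01 and 12.99 in the progenitor cells and 10.97, 10.75, 12.5 and 11.78 in the organoids. Every progenitor array lay above every organoid array, and every organoid array above every tissue array. The difference from tissue was 3.54 ± 0.15 in progenitor cells (11.6-fold, adjusted p = 7.87e-10) and 1.96 ± 0.15 in organoids (3.9-fold, adjusted p = 1.77e-07). A second Sox17 probe set read 7.22, 7.59, 7.61 and 7.77 in tissue, 11.76, 11.8, 11.58 and 11.65 in the progenitor cells and 7.49, 7.94, 7.4 and 8.36 in the organoids. It was higher in progenitor cells too (4.04 ± 0.19), but its organoid and tissue ranges overlapped (0.24 ± 0.19, adjusted p = 0.29). The main Sox17 probe set carries the suffix that Affymetrix gave to sets with probes shared between sequences.

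Sox7, another SOXF factor, changed in opposite directions at the 2 steps. It read 7.27, 7.6, 7.66 and 7.72 in tissue, 5.98, 6.2, 6.13 and 6.06 in the progenitor cells and 10.27, 10.38, 9.97 and 10.34 in the organoids, with no overlap between any 2 stages. Progenitor cells were lower than tissue by 1.3 (adjusted p = 2.12e-05), and organoids were 14.7-fold higher than progenitor cells (3.88 ± 0.17, adjusted p = 2.07e-09) and 6-fold higher than tissue (2.58 ± 0.17). Its dimmer second probe set also placed all organoid arrays highest (6.33, 7.13, 6.99 and 6.73, 2.44 ± 0.28 against tissue), and it did not separate progenitor cells from tissue (0.01 ± 0.28, adjusted p = 0.977). The third SOXF factor, Sox18, was lower than tissue in both cultures.

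Flt4, the receptor for Vegfc and Vegfd on lymphatic and some fenestrated endothelium, read 7.86, 8.34, 8.8 and 8.68 in tissue, 11.01, 11.07, 11.15 and 11.16 in the progenitor cells and 6.45, 6.7, 7.68 and 7.79 in the organoids. On this probe set it was 6.2-fold higher in progenitor cells than in tissue (2.62 ± 0.14, adjusted p = 4.63e-09) and then lower in organoids than in tissue (-1.17 ± 0.14, adjusted p = 7.99e-06). The second Flt4 probe set read 6.76, 6.36, 6.05 and 6.13 in tissue, 7.45, 7.78, 7.56 and 7.66 in the progenitor cells and 8.99, 8.69, 9 and 8.96 in the organoids. There progenitor cells were 1.14 ± 0.18 above tissue (2.2-fold) and the organoids were highest, 2.37 ± 0.18 above tissue (adjusted p = 1.31e-07). The annotation used lists a source sequence for this second probe set and none for the first. The probe sets therefore gave the same direction in progenitor cells and opposite directions in organoids, so the level of Flt4 in organoids relative to tissue has no settled direction here.

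Ecscr, a surface regulator of endothelial movement, read 7.64, 8.12, 8.43 and 8.12 in tissue, 9.75, 9.64, 9.28 and 9.21 in the progenitor cells and 9.01, 8.68, 8.28 and 8.49 in the organoids on its 1 probe set. It was 2.5-fold higher in progenitor cells (1.34 ± 0.16, adjusted p = 8.07e-06). In organoids the tissue and organoid ranges overlapped, and the difference of 0.51 ± 0.16 (adjusted p = 0.0112) was no longer called after quantile normalization (0.28, adjusted p = 0.137) or after scaling to the 75th percentile (0.28, adjusted p = 0.117).

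**Figure D3:**
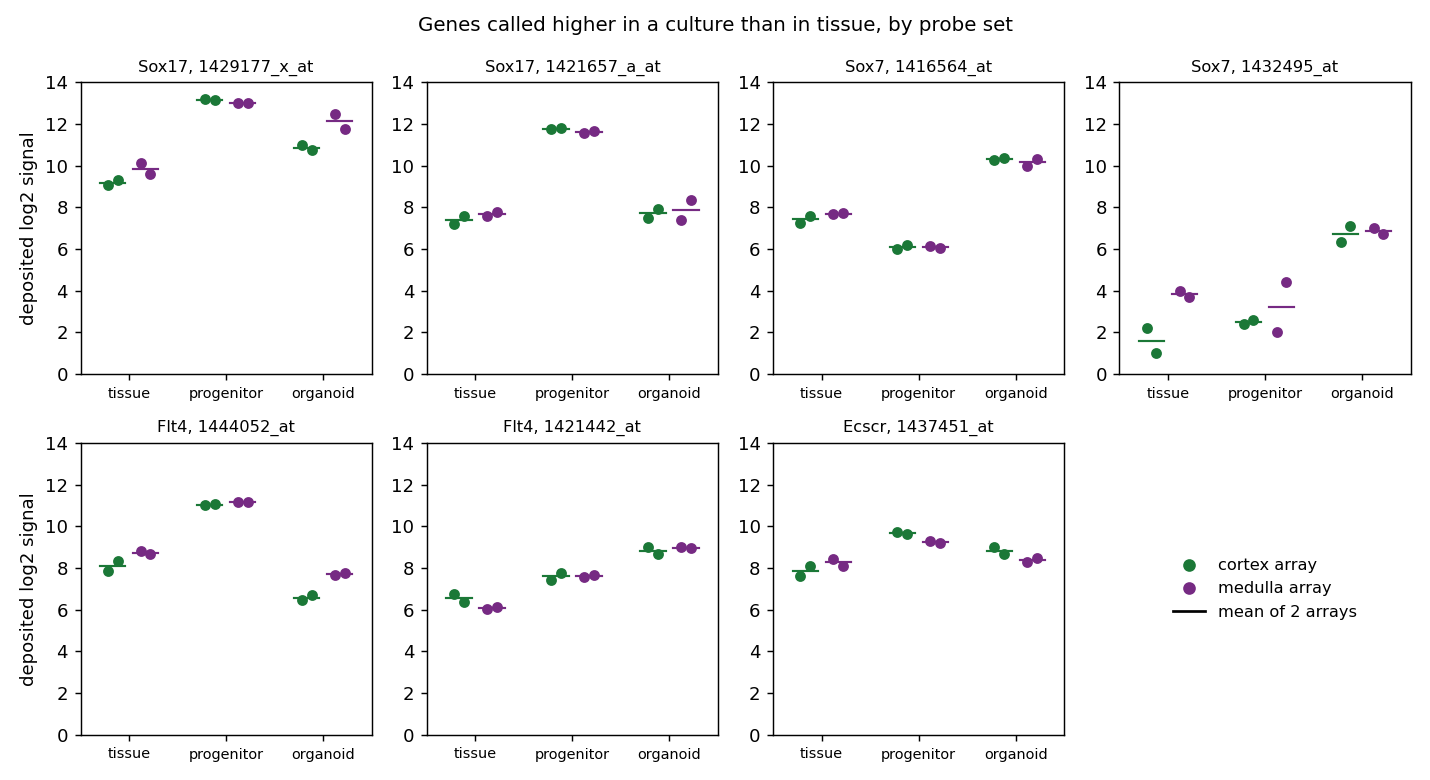
Each point is the deposited log2 signal of 1 array, and bars are means of the 2 arrays of a group, for every probe set of the genes called higher in a culture than in tissue. Both Sox17 probe sets peaked in progenitor cells and both Sox7 probe sets in organoids, while the 2 Flt4 probe sets differed in the order of tissue and organoids.

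Organoids against tissue gave nearly the same picture as progenitor cells against tissue; both comparisons use the same 4 tissue arrays. Of the 35 genes, 31 were lower in organoids, 3 were higher (Sox7, Sox17 and Ecscr) and Lyve1 was not called (-0.33 ± 0.38) on the main probe sets, where 41.1% of all genes were called lower and 25.7% higher. The 31 include Flt4, whose direction depended on the probe set; with the mean of all probe sets of a gene, 30 were lower and 4 higher, Flt4 among the latter (0.60, adjusted p = 0.000344). The median of the list was -3.39, beside -0.30 for all genes. Plvap (-7.09 ± 0.28), Emcn (-6.45 ± 0.27), Tek (-6 ± 0.3) and Esam (-5.98 ± 0.27) had the lowest differences. The 7 secreted, matrix or intracellular proteins were all lower in organoids on their main probe sets, as were the 11 receptors. Further probe sets of 2 receptors were called higher: Flt4 (2.37) and Flt1 (0.69 ± 0.24, adjusted p = 0.0226). Other further probe sets of Flt1 (-0.69 ± 0.32), Ptprb (0.47 ± 0.21) and Calcrl (-0.39 ± 0.29) were not called. Tal1, not called in progenitor cells, was lower in organoids (-2.03 ± 0.27, adjusted p = 2.01e-05). The organoid arrays also differed in their labelling controls: the median log2 signal of the poly-A controls was 1.15 to 2.3 there, 7.01 to 7.16 on progenitor arrays and 7.69 to 8.23 on tissue arrays. The 3' minus 5' log2 signal of the Gapdh control was 0.867 to 1.67 on organoid arrays, -0.405 to -0.298 on progenitor arrays and -0.233 to 0.183 on tissue arrays. Organoid stage and these array differences cannot be told apart, whether organoids are set against tissue or against progenitor cells. Progenitor and tissue arrays did not overlap in these controls either, though the gaps were smaller. Stage and array differences cannot be told apart in that comparison either.

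From progenitor cells to organoids the list moved down by less than from tissue to progenitor cells. Of the 35 genes, 18 were lower in organoids (51.4%, beside 36.3% of all genes) and 3 were higher (8.57%, beside 22.2%). The median was -0.69 beside -0.23 for all genes, and it was -3.06 from tissue to progenitor cells. The count of 21 calls fell to 14 without cortex organoid replicate 2. Of the 29 genes lower than tissue in both cultures, 14 were lower again in organoids than in progenitor cells, 13 were not called between the cultures and 2, Calcrl and Rasip1, were higher in organoids. Flt4 (-3.8 ± 0.14) and Cd34 (-2.07 ± 0.28) fell most on the main probe sets, followed by Sox17 (-1.58 ± 0.15), Nos3 (-1.55 ± 0.26), Tal1 (-1.5 ± 0.27) and Myct1 (-1.5 ± 0.29). The other 12 (Kdr, Ednrb, Esam, Mmrn2, Gpihbp1, Ramp2, Robo4, Ptprb, Ecscr, Tek, Eng and Pecam1) fell by 1.39 (Kdr) to 0.69 (Pecam1). Several of these falls depended on the processing. With the median signal as offset Tek (-0.26), Robo4 (-0.33), Eng (-0.46) and Pecam1 (-0.24) were not called, and with the mean of all probe sets Eng (-0.36), Mmrn2 (-0.21), Ptprb (-0.28) and Myct1 (-0.40) were not, so that 10 of the 14 genes lower at both steps kept that call under each of these settings. Pecam1 was also lost after quantile normalization, on probe sets without a suffix, in the fit over all probe sets and with the replicate block (adjusted p from 0.0506 to 0.0612). Without cortex organoid replicate 2 the call stood in 8 of the 14, and in 9 without cortex progenitor replicate 2 or medulla progenitor replicate 2. On the second Flt4 probe set the direction was the opposite (1.24 ± 0.18), as it was on the dimmest Ptprb probe set (0.98 ± 0.21). The 3 higher genes were Sox7, Calcrl (1.19 ± 0.26, adjusted p = 0.0016) and Rasip1 (0.88 ± 0.33, adjusted p = 0.0366). In Calcrl and Rasip1 the organoid and progenitor ranges overlapped, the other 2 Calcrl probe sets were not called (0.62 and -0.41), and Rasip1 was no longer called after quantile normalization (adjusted p = 0.056). Of Flt1, not called on the main probe set (0.64 ± 0.4), 2 other probe sets were higher (1.29 and 1.03) and 1 lower (-1.41).

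Between medulla and cortex tissue none of the 35 genes passed the adjusted threshold (limma), where 0.187% of all genes, 34 in number, were called. At an unadjusted p under 0.05, 3 of the 35 passed, all higher in medulla, beside 8.46% of all genes. Most differences nonetheless had one sign: 29 of the 35 genes were higher in medulla by their means, beside 50.2% of all genes. The list median was 0.34 beside 0.00 for all genes. In 14 of the 35 both medulla arrays lay above both cortex arrays, which was so in 20.9% of all genes. The reverse held in 1 of the 35 and in 20.5% of all genes. Esam had the largest difference (10.02 and 10.8 in cortex, 11.98 and 10.95 in medulla, 1.05 ± 0.39, adjusted p = 0.438), followed by Rasip1 (0.72 ± 0.47) and Sox17 (0.65 ± 0.22). The size of this shift varied with the arrays used. Cortex tissue replicate 1 was the lowest of the 4 tissue arrays in 27 of the 35 genes, against 27.9% of all genes. Medulla tissue replicate 1 was the highest in 23 of the 35, against 4974 of all 18193 genes. Without cortex tissue replicate 1 the list median was 0.14 with 23 of 35 genes above 0, and without medulla tissue replicate 1 it was 0.14 with 26 above 0. It was 0.49 with 30 above 0 without cortex tissue replicate 2 and 0.50 with 28 above 0 without medulla tissue replicate 2.

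In progenitor cells no gene of the list passed the adjusted threshold between medulla and cortex (limma), where 0.225% of all genes were called, and 2 of the 35 passed an unadjusted p under 0.05 (5.71%, beside 5.03% of all genes). In 11 of the 35 genes both medulla arrays were higher, which held for 20.8% of all genes, and in 3 both were lower, which held for 19.0%. Plvap had the largest difference, with 2.44 and 1.4 in cortex and 4.95 and 5.55 in medulla progenitor cells (1.48 ± 0.4, adjusted p = 0.324), at signals far below tissue in both. The test of a regional difference in the change from tissue to progenitor cells was passed by none of the 35 genes (limma, 0 called at the adjusted threshold and 2, or 5.71%, at an unadjusted p under 0.05), where 0.187% of all genes were called and 6.94% passed unadjusted.

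In organoids 4 of the 35 genes differed by region: Calcrl, Sox17 and Flt4 were higher in medulla organoids and Esam was lower there, where 11.5% of all genes were called in either direction. In 12 of the 35 both medulla arrays were higher, which held for 25.2% of all genes, and in 6 both were lower, which held for 22.0%. Calcrl read 5.47 and 4.41 in cortex and 6.99 and 7.73 in medulla organoids (1.95 ± 0.37, adjusted p = 0.00562), while its other 2 probe sets were not called (1.41 ± 0.61, adjusted p = 0.187, and 0.52 ± 0.41, adjusted p = 0.52). Sox17 read 10.97 and 10.75 in cortex and 12.5 and 11.78 in medulla organoids (1.27 ± 0.22, adjusted p = 0.00348), while its second probe set showed 0.16 ± 0.27 (adjusted p = 0.809). Flt4 read 6.45 and 6.7 in cortex and 7.68 and 7.79 in medulla organoids (1.05 ± 0.2, adjusted p = 0.00554), and its second probe set showed 0.13 ± 0.26 (adjusted p = 0.84). Esam read 5.27 and 5.14 in cortex and 2.2 and 1.55 in medulla organoids (-1.46 ± 0.39, adjusted p = 0.0308), and with the median signal as offset the difference was -0.54 and not called (adjusted p = 0.35). One Flt1 probe set was also higher in medulla organoids (6.23 and 6.16 against 8.48 and 8.48, 2.07 ± 0.34, adjusted p = 0.0034). The dimmest Ptprb probe set was lower there (-1.04 ± 0.29, adjusted p = 0.0464), at signals below the array median. Fibroblast markers also differed by region: 10 of 13 were called higher in medulla organoids, with a median of 1.92, where 5% of all genes were called higher. The mean log2 signal of these 13 markers was 5.77 and 6.54 on cortex and 8.55 and 8.53 on medulla organoid arrays. Their part in the differences of the 4 genes was not tested. With only the 4 organoid arrays in the fit, none of the 4 genes passed (adjusted p from 0.117 for Sox17 to 0.339 for Flt4), without cortex organoid replicate 2 only Sox17 and Flt4 were called, and without replicate 1 Esam was not (adjusted p = 0.13).

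The change from progenitor cells to organoids differed between regions in 1 of the 35 genes, Sox17, where 2.18% of all genes were called. Sox17 fell by 2.29 in cortex cultures and by 0.86 in medulla cultures, a difference between regions of 1.43 ± 0.31 (adjusted p = 0.0358). The call was lost when any 1 of the 4 progenitor arrays or the 2 cortex organoid arrays was left out (adjusted p from 0.0898 to 0.154). On the second Sox17 probe set the falls were 3.97 and 3.65 (0.32 ± 0.38, adjusted p = 0.786).

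**Figure D4:**
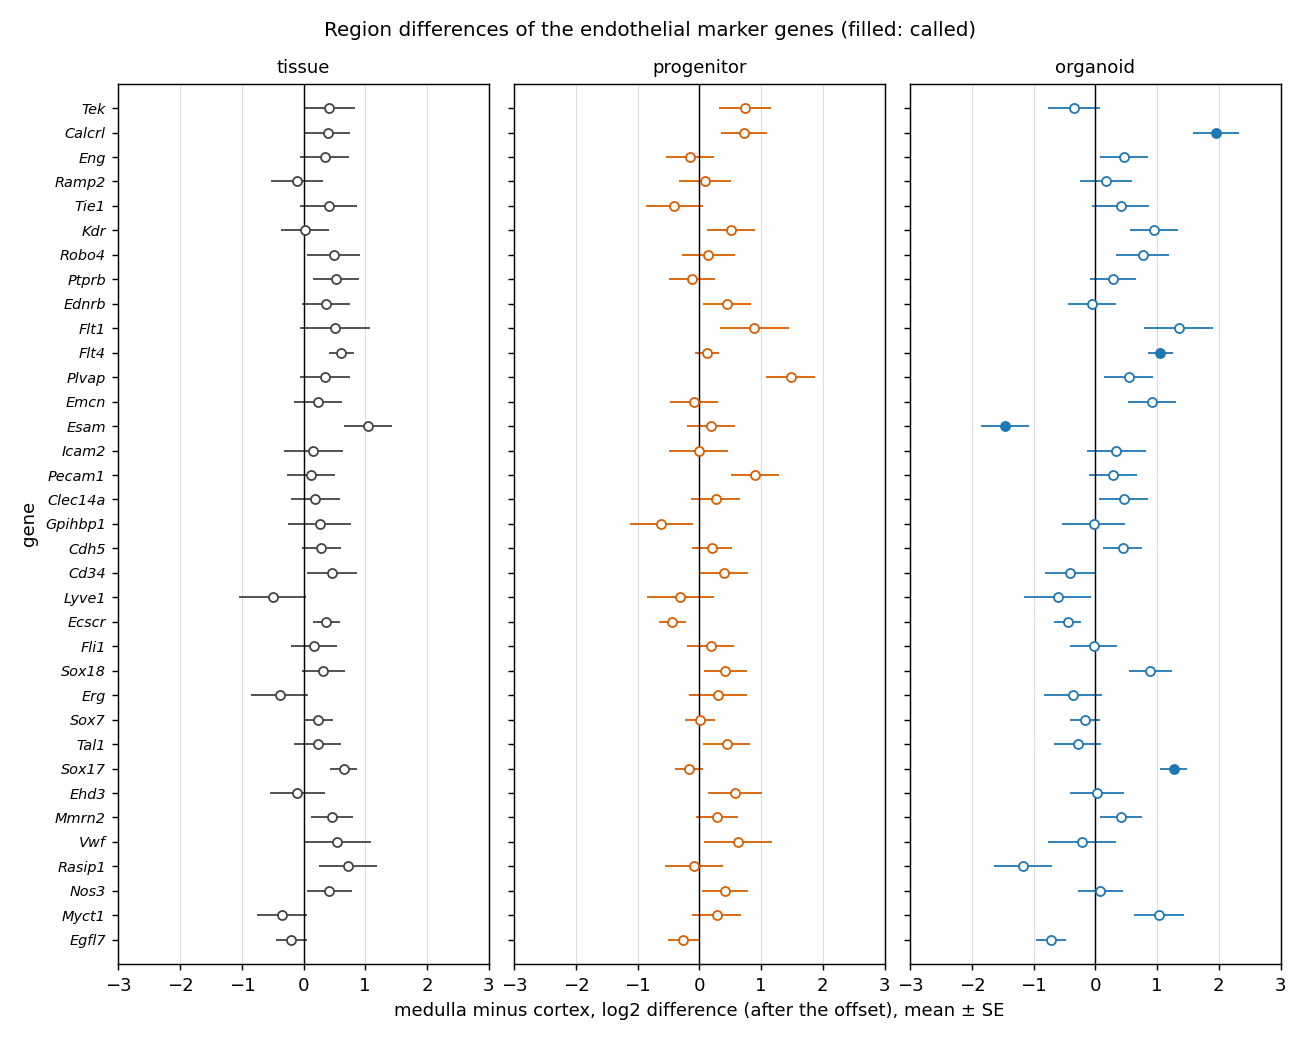
Points are medulla minus cortex log2 differences with SE (after the offset) for each gene in tissue, progenitor cells and organoids, 2 arrays on each side; filled points passed the test. No point is filled in tissue or progenitor cells, and in organoids Calcrl, Flt4 and Sox17 lie above 0 and Esam below.

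A second list of 33 endothelial genes gave a similar picture against tissue: 25 were lower in progenitor cells, 0 were higher and 8 were not called (limma; median -2.15), and in organoids 26 were lower and 3 higher (median -2.28). Esm1, a secreted proteoglycan of tip cells, was lowest, with 9.81, 10.08, 10.13 and 9.87 in tissue, against 3.21, 0.79, 0.6 and 1.52 in progenitor cells (-5.76 ± 0.25), followed by Adgrl4 (-4.7 ± 0.27), an adhesion G protein-coupled receptor, and Aplnr (-4.36 ± 0.43), the apelin receptor. The 3 that were higher in organoids than in tissue were Icam1 (2.32 ± 0.15) and Vcam1 (0.6 ± 0.17), adhesion molecules that many cell types make on inflammatory stimulation, and the tetraspanin Tspan18 (1.1 ± 0.18). From progenitor cells to organoids 4 of the 33 were higher and 12 lower (12.1% and 36.4%, beside 22.2% and 36.3% of all genes). Adgrf5, which kidney intercalated cells also make, was higher in medulla than in cortex progenitor cells (2.96 ± 0.42) and organoids (3.44 ± 0.42). Of 4 lymphatic markers tested, 3 were lower in progenitor cells and Pdpn, which podocytes and fibroblasts also make, was higher (1.08 ± 0.14). In organoids all 4 were lower than in tissue.

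Ligands and partners of the listed receptors did not move one way: of 25 tested, 5 were higher and 12 lower in progenitor cells than in tissue, and 7 were higher and 14 lower in organoids. Edn1, a ligand of the endothelin receptors, read 6.74, 6.36, 6.48 and 6.03 in tissue, 10.71, 10.68, 9.98 and 10.18 in the progenitor cells and 11.89, 11.84, 12.32 and 12.21 in the organoids. Its difference from tissue was 3.76 ± 0.12 in progenitor cells and 5.43 ± 0.12 in organoids. Adm, a ligand of the Calcrl and Ramp2 receptor, read 8.51, 8.31, 7.36 and 7.96 in tissue, 9.81, 9.91, 9.7 and 9.6 in the progenitor cells and 12.94, 12.73, 13.32 and 12.92 in the organoids (1.66 ± 0.14 and 4.86 ± 0.14 against tissue). Both ligands were thus higher in cultures in which their listed receptors Ednrb, Calcrl and Ramp2 were lower than in tissue. Vegfa, the main ligand of Kdr, read 10.27, 10.31, 10.3 and 10.43 in tissue, against 10.26, 10.26, 10.35 and 10.28 in progenitor cells (-0.04 ± 0.17, adjusted p = 0.868) but 6.61, 6.75, 6.91 and 7.9 in organoids (-3.1 ± 0.17 against progenitor cells). Angpt1, the activating ligand of Tek, was lower in progenitor cells (-3.3 ± 0.34), as was Lpl, the lipase that Gpihbp1 binds (-6.42 ± 0.24). From progenitor cells to organoids 5 of the 25 were higher and 11 lower (20% and 44%, beside 22.2% and 36.3% of all genes).

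Markers of several other cell types of kidney tissue were also lower in the cultures. Of 12 pericyte and smooth muscle markers, 9 were lower and 0 higher in progenitor cells (median -1.74), led by Rgs5 (-7.18 ± 0.38) and Abcc9 (-5.32 ± 0.25), and 11 were lower in organoids. Of 15 leukocyte markers, 12 were lower and Cd68 was higher (median -2.56), led by H2-Aa (-6.88 ± 0.33) and Cd74 (-5.19 ± 0.23). Podocyte markers were lower in 7 of 8 (median -2.82), led by Clic5 (-5.48 ± 0.26), which glomerular endothelium also makes, and Ptpro (-4.31 ± 0.42). Of 8 red cell and platelet markers 2 were lower (25%, beside 28.5% of all genes) and Ppbp, a chemokine, was higher (7.83 ± 0.16). Fibroblast markers moved the other way in progenitor cells, with 10 of 13 higher and 2 lower (median 1.26), led by Fn1 (3.38 ± 0.18) and Col1a1 (3.28 ± 0.12), and in organoids 3 were higher and 7 lower than in tissue. Of 10 kidney epithelial markers 5 were higher, among them Krt18 (4.98 ± 0.11) and Krt8 (2.6 ± 0.11), and 5 were lower, led by the mature tubule gene Umod (-10.03 ± 0.13). The part of these cell types in the differences of the endothelial genes was not tested.

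**Figure D5:**
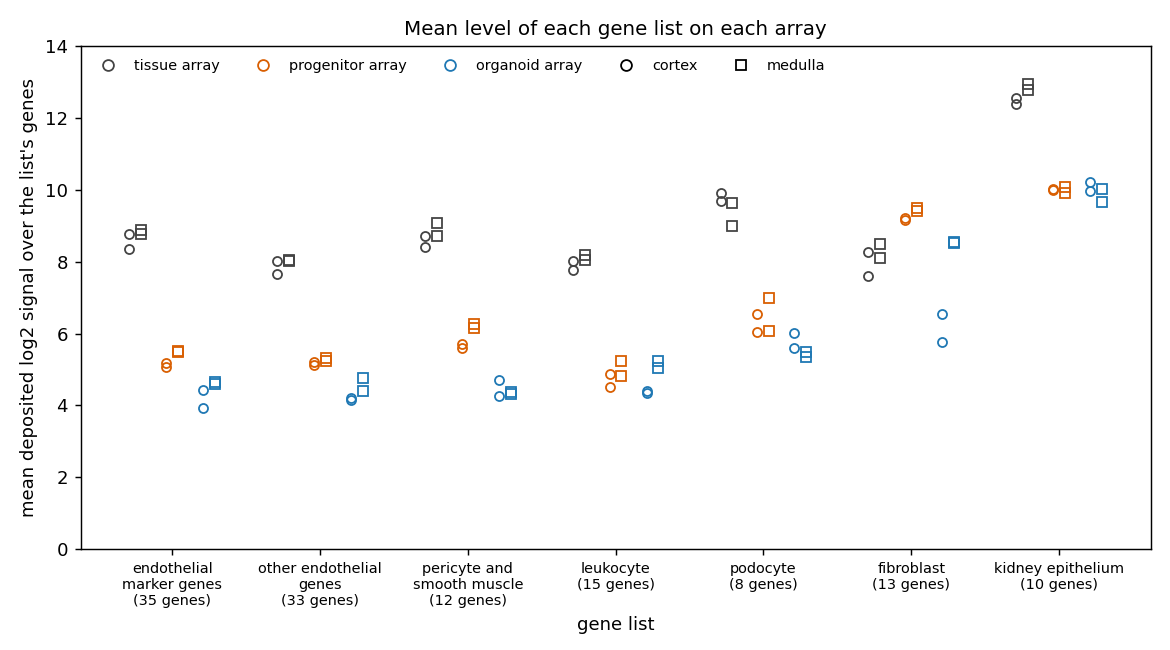
Each symbol is the mean deposited log2 signal over the genes of a list on 1 array, coloured by stage, with circles for cortex and squares for medulla. The endothelial, pericyte, leukocyte and podocyte lists were highest on tissue arrays, whereas the fibroblast list was highest on progenitor arrays (9.15 to 9.49) and lower on cortex than on medulla organoid arrays; levels of different lists are not comparable with each other.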

How the data were processed

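RNA of 12 samples was hybridized to Affymetrix mouse arrays after labelling with a 3' in vitro transcription kit, per the labels' protocols. Signals came from MAS5 (version not given in the sources used here), per the submitters' processing notes, and the authors deposited them as log2 signals per probe set. The values show a common scaling: the mean unlogged signal after trimming 2% at each end was 500 on every array. Detection calls were not used here. The number of arrays limits the precision.

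Control probe sets (64 of 45101) were left out. Only the 34945 probe sets annotated with a single gene symbol were used; 932 had several and 9224, with the controls, had none. Each gene was represented by its brightest probe set (by the mean of all 12 arrays). Before log2 was taken, 15.16 units, the 25th percentile of the unlogged signals, were added. All 12 arrays entered 1 limma fit (R 4.3.3, limma 3.58.1) of 6 group means with empirical Bayes variances and a mean-variance trend (6 residual degrees of freedom, median prior 6.09), without a brightness filter. Tests were two-sided, adjusted by Benjamini-Hochberg over 18193 genes, or over all 34945 probe sets for further probe sets of a gene. The SE comes from this fit. The fit was tested on simulated data. Since it is not stated whether cultures or animals were separate beyond the word biological, p-values measure only the spread between these samples.

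Array values are given for the 4 largest called falls per role, for genes called higher in a culture than in tissue or in organoids than in progenitor cells, and for up to 5 called genes per region comparison. Edn1, Adm, Vegfa and Esm1 arrays, and those of Lyve1, Tal1 and Plvap by region, were added after their values were seen. The members and lists were chosen with earlier results of these data known. Alternatives changed the normalization, offset, brightness filter, probe set, variance model, groups in the fit, replicate block and each array.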

Additional observations from a re-analysis of the deposited data

Results flagged for a closer look

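Sox17 was the only one of the 35 genes whose change from progenitor cells to organoids differed between regions by a direct test, an interaction of 1.43 on the log2 scale (limma, adjusted p = 0.0358). The call was lost when any 1 of 6 of the 8 arrays compared was left out (all but the medulla organoid replicates), with only the compared groups in the fit (adjusted p = 0.0666) and without the variance trend (adjusted p = 0.119). The second Sox17 probe set gave 0.32 (adjusted p = 0.786).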

How the results depend on the processing

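The counts of called members were within 1.5 times the main count under all alternatives run other than these. Requiring a mean above the median of all genes left 8 members to test, of which 8, 6 and 8 were called in progenitor cells against tissue, organoids against progenitor cells and organoids against tissue, and 2 by region in organoids. With an offset of 1, 8 members were called by region in organoids and 2 for the region dependence of the second step. With only the compared groups in the fit both of these counts were 0, and without the variance trend the latter was 0. The brightness setting uses fewer genes and the compared groups alone fewer arrays, while the offset and variance trend settings use all of both. The cause of the changed counts was not tested. Leaving out 1 array at a time gave 33 to 33 calls in progenitor cells against tissue, 14 to 21 in organoids against progenitor cells, 33 to 34 in organoids against tissue, 0 to 0 by region in tissue, in progenitor cells and for the first region dependence, 2 to 6 by region in organoids and 0 to 2 for the second region dependence. Where a group kept 1 array, that array was assumed to vary like the other groups.

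No pairing by replicate number was seen: deviations of replicates from their group means correlated between groups at -0.09 to 0.04 across genes. These correlations cannot show whether replicates with equal numbers share an animal. With the replicate number as a block, 33, 20 and 34 members were called in the 3 stage comparisons, 4 by region in organoids and 1, Sox17, for the second region dependence.

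The reversed signs given here, all in the stage comparisons, came from other probe sets. By region in tissue, signs also changed when 1 array was left out. There 29 of the 35 genes were above 0 on all arrays, 23 without cortex tissue replicate 1 and 26 without medulla tissue replicate 1. In the comparison of progenitor cells with tissue, Calcrl read 0.01 on its probe set without a suffix. For organoids against progenitor cells, Calcrl was -0.41 on that probe set, Egfl7 was -0.56 and Ehd3 -0.82 as means of all probe sets, and Flt1 was -1.41, Mmrn2 0.77 and Myct1 0.09 on the probe set with the highest group mean, an alternative chosen after seeing the data. Against tissue, Flt4 in organoids was 0.60 as the mean of its probe sets. Scaling to the 75th percentile moved the median of all genes to -0.46 in organoids against tissue and to -0.32 against progenitor cells, and member directions stayed. Most members were dim in the cultures, which limits the size and order of their differences there.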
